A study of Schizosaccharomyces pombe with 2 samples.

Results

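The genes ctt1, gpx1 and sod1 of fission yeast, Schizosaccharomyces pombe, encode catalase, glutathione peroxidase and copper-zinc superoxide dismutase. They were found by their gene symbol in the platform annotation, which gave 1 probe set for each, so these are 3 of the 2896 S. pombe genes that had a named probe set. RNA of log-phase cells was measured on 2 Affymetrix Yeast Genome 2.0 arrays, which read each transcript with short oligonucleotide probes. The untreated group (0 mM) is 1 array, and the treated group is 1 array of cells exposed for 2 h to DETA NONOate at 0.5 mM. This donor breaks down slowly in solution and sets nitric oxide free. Both cultures grew to mid-log phase in YES, a rich medium, at 30 °C. The labels name no strain or genotype, give no time for the untreated culture, and describe no cells given the compound after its nitric oxide was spent, so nitric oxide and the donor molecule itself cannot be told apart as the source of a difference.

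Superoxide dismutases turn superoxide into hydrogen peroxide and oxygen, and peroxide is then removed by catalase, peroxiredoxins or peroxidases. Catalase carries a haem group, an iron-holding ring, in its active site, whereas glutathione peroxidase of yeast works through a reactive cysteine and has no haem. Sod1 needs copper and zinc, and its copper is delivered by a chaperone protein. In fission yeast, ctt1 and gpx1 are known as stress-induced genes under the stress kinase Sty1 with the transcription factor Atf1, and ctt1 is also known as a target of the oxidant-sensing factor Pap1. Nitric oxide can bind haem iron.

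The series addresses how cells respond to a nitric oxide donor and what that response has to do with oxidative stress. On the treated array, the haem enzyme gene ctt1 had a lower signal and the haem-free gpx1 had a higher one, while sod1 was lower by a smaller amount. The ratios below are given as log2 of the treated over the untreated signal, so that −1 is 2-fold lower and 1 is 2-fold higher. With 1 array per group there was no replicate check and no test of the treatment, the number of arrays limits the precision, and a difference between the groups cannot be told apart from a difference between 2 cultures. The RNA came from whole cultures, so less transcript in every cell and fewer cells holding the transcript cannot be told apart either.

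The arrays had been scaled to nearly the same 2% trimmed mean, at 500.3 in both. The background level, taken as the 95th percentile of 2601 probe sets for Saccharomyces cerevisiae genes that have no intended target in this RNA, was 7.99 for the untreated cells and 8.76 for the treated cells, in signal units. Of the S. pombe genes, 2889 were over background on at least 1 array, and these are called measured. Their median log2 ratio was −0.01, and their central 95% lay between −0.90 and 0.95. The 63 probe sets for control RNAs that are added during the assay ranged in log2 ratio from −0.76 to 0.42 (SD 0.24). These controls cover labelling and hybridisation and leave out the spread between cultures. Control probe sets along the actin transcript act1 had log2 ratios of 0.15 at the 3′ end and 0.09 at the 5′ end, whereas those along gpd3, a glyceraldehyde-3-phosphate dehydrogenase gene, had 0.28 and 1.62, and the part of RNA quality in the results was not tested.

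The catalase gene ctt1 (SPCC757.07c) gave a signal of 2639 in untreated cells and 1024 in treated cells. The treated signal was 38.8% of the untreated one, 2.58-fold lower, with a log2 ratio of −1.37. This was lower than the ratio of any of the 63 added control probe sets. It placed ctt1 30th from the lowest, since 29 of the 2889 measured genes had a lower ratio. The treated signal was still 117-fold over the background level.

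The glutathione peroxidase gene gpx1 (SPBC32F12.03c) gave a signal of 4009 in untreated cells and 7523 in treated cells. It was 1.88-fold higher, with a log2 ratio of 0.91. That ratio was above those of all 63 added control probe sets and just under the 2-fold threshold. It placed gpx1 86th from the highest of the measured genes, with 2.94% of them at a higher ratio.

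The superoxide dismutase gene sod1 (SPAC821.10c) gave a signal of 7839 in untreated cells and 5514 in treated cells, which was 1.42-fold lower and a log2 ratio of −0.51. The lowest of the added control probe sets, at −0.76, had a ratio below that of sod1, so its difference lay within the range of these controls. In rank sod1 was 261st from the lowest, and 9.00% of the measured genes had a lower ratio.

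**Figure D1:**
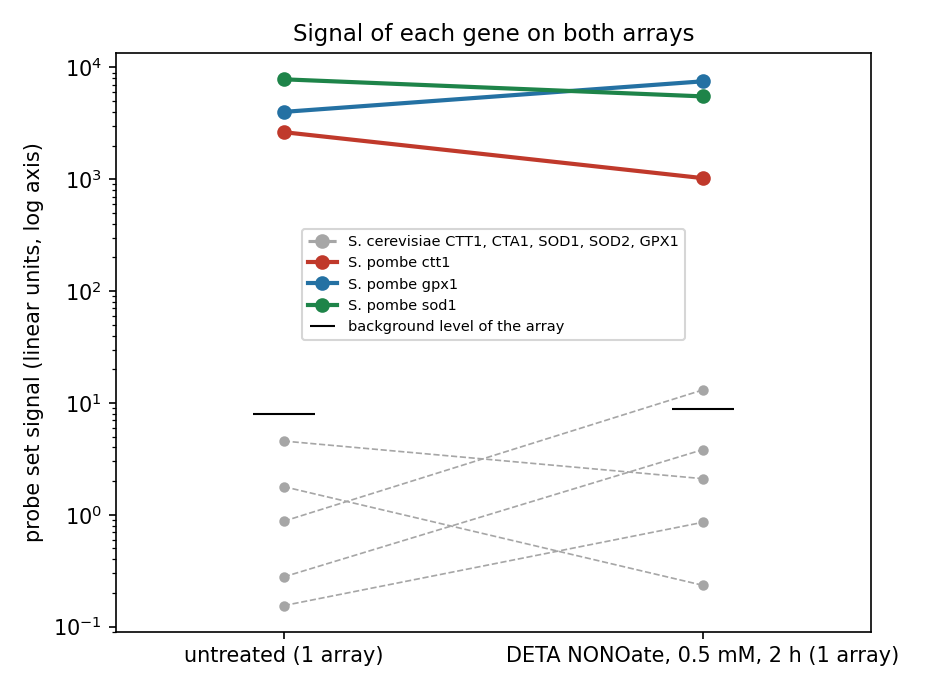
Probe set signal (linear units on a log axis) of ctt1, gpx1 and sod1 on the untreated and the DETA NONOate array, with 5 S. cerevisiae counterparts in grey and the background level of each array as a short bar. Signals of ctt1 and sod1 were lower and that of gpx1 higher on the treated array, and all 3 stayed far above background, while the grey points lay at 13.1 or less.

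Probe sets for the corresponding S. cerevisiae genes are among those that set the background level, so they are no separate check of it. Among those for CTT1, CTA1, SOD1, SOD2 and GPX1 of that species, 0 of 5 were over the background level on the untreated array, where the highest signal was 4.56. On the treated array 1 of 5, SOD1, was over it, with a signal of 13.1. The S. pombe signals were at least 117-fold over the background level on both arrays.

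At a threshold of 2-fold, 1 of the 3 genes, ctt1, was lower and 0 were higher. Over all measured genes, 2.04% (59 of 2889) were at least 2-fold lower and 2.25% (65 of 2889) at least 2-fold higher. Among the 1142 measured genes with a mean signal over 1000, to which all 3 belong, 2.89% were at least 2-fold lower and 2.63% at least 2-fold higher. At 1.5-fold, gpx1 counted as higher and ctt1 as lower, against 5.68% of measured genes higher and 6.61% lower, and sod1 lay within 1.5-fold. At 3-fold none of the 3 was counted, against 0.9% of genes higher and 0.623% lower.

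**Figure D2:**
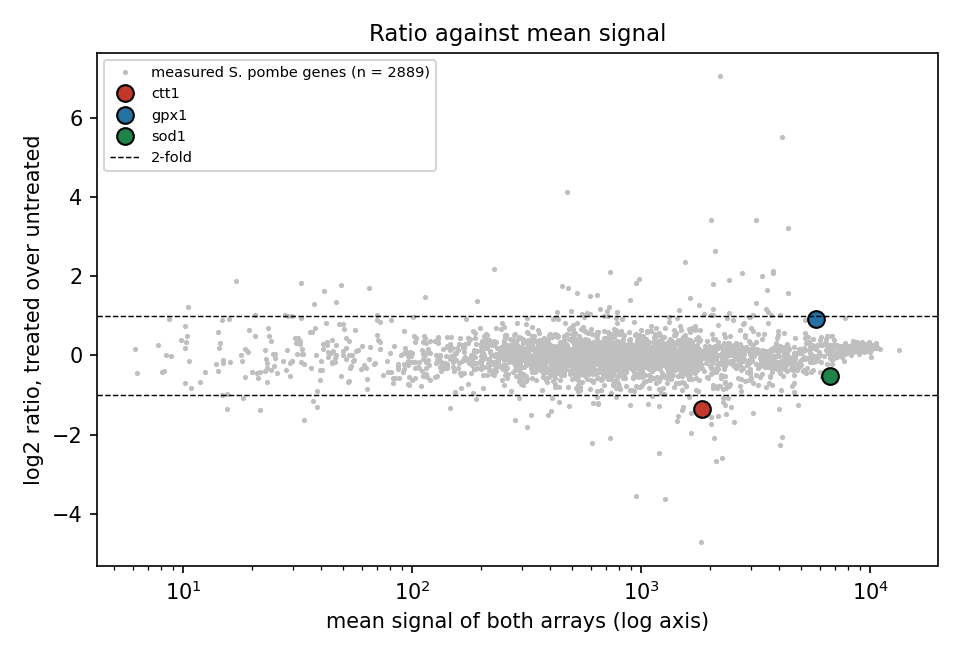
Log2 ratio of treated over untreated signal against the mean signal of both arrays (log axis) for the 2889 measured S. pombe genes, with dashed lines at 2-fold. The point for ctt1 at −1.37 lies below the lower line, gpx1 at 0.91 just under the upper line, and sod1 at −0.51 between them.

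The haem enzyme gene ctt1 and the haem-free gpx1 had ratios of opposite sign, while sod1, for the copper-zinc enzyme, had the sign of ctt1. The log2 ratio of ctt1 minus that of gpx1 was −2.27, so the change of one relative to the other was 4.84-fold. Between ctt1 and sod1 the ratios differed by −0.86 in log2 (1.81-fold), and between sod1 and gpx1 by −1.42 (2.67-fold). For comparison, the highest and lowest of the added control probe sets lay at 0.42 and −0.76. These are differences between changes, and levels of different probe sets are not compared.

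Most genes in a list of other oxidant defence enzymes had a ratio of the same sign as gpx1 and opposite to ctt1. Glutaredoxins that the list left out did not, and of these only grx5 was past 2-fold. Of 13 measured genes in the list, 2 were at least 2-fold higher, 0 at least 2-fold lower and 11 within 2-fold. The shares over all measured genes were 2.25% higher and 2.04% lower. The median log2 ratio of the list was 0.35, against −0.01 for all measured genes. Ratios above 0 were found for 12 of the 13, and ctt1 lay below all 13. The glutathione S-transferase gene gst2 was 9.29-fold higher and srx1, for the sulfiredoxin that repairs oxidised peroxiredoxin, 6.25-fold higher, and these were the genes of the list with a ratio above that of gpx1. The glutathione S-transferase gene gst3 was 1.80-fold higher. The main peroxiredoxin gene tpx1, whose product removes low levels of peroxide, had signals of 5677 and 7073 and a log2 ratio of 0.32. The thioredoxin gene trx2 had signals of 937 and 578 and a log2 ratio of −0.70, below that of sod1. The list held the glutaredoxin genes grx1 and grx2, and 4 relatives, grx3, grx4, grx5 and the thioredoxin-like gene txl1, were added after their values were seen. All 4 had ratios below 0, with grx4 and txl1 close to the median of all measured genes. That of grx5, whose product acts in mitochondria in building iron-sulphur clusters, was −2.08 in log2 (signals of 1175 and 278), below ctt1, and those of grx3, grx4 and txl1 were −0.26, −0.01 and −0.07. With them 12 of 17 genes were above 0, 2 were at least 2-fold higher and 1 at least 2-fold lower, and the median log2 ratio was 0.32.

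Genes for the supply of copper and zinc, the metals of Sod1, were read as transcript signals, and metal supply itself was not measured. The gene for the copper chaperone of Sod1, ccs1 (SPAC22E12.04), gave 1283 untreated and 2058 treated, 1.60-fold higher and opposite in direction to sod1. It was counted in the oxidant defence list, although its product is a chaperone. Among 9 measured genes for copper and zinc supply, 3 were at least 2-fold higher and 0 at least 2-fold lower. Over all measured genes these shares were 2.25% and 2.04%. The median log2 ratio of the 9 was 0.90. All 9 had a ratio above that of sod1, as did 91.0% of all measured genes. The metallothionein gene zym1 had signals of 1018 and 3804, a 3.74-fold difference. The copper transporter genes ctr6 and ctr4 were 2.25-fold and 2.02-fold higher, and ccc2, a copper-transporting ATPase gene, was 1.94-fold higher. The zinc transporter genes zrt1 and zhf1 had log2 ratios of 0.23 and 0.02. The copper regulator gene cuf1 had −0.20, the lowest of the 9. The count of genes at least 2-fold higher was 2 when the arrays were scaled to the hybridisation controls.

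The platform annotation also carries the symbol sod2. In fission yeast that name has been used for a sodium and proton antiporter, and the gene identifier of the probe set belongs to this antiporter gene, nhe1 (SPAC977.10) in RefSeq. The manganese superoxide dismutase gene of the mitochondrion, sod2 (SPAC1486.01) in RefSeq, and the peroxisomal peroxiredoxin gene pmp20 were not analysed here.

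Next came the pathway that induces ctt1 and gpx1 under stress. Of 20 measured genes of the Sty1 kinase pathway and of stress regulators, 0 were 2-fold higher or lower, which is near the background of 2.25% and 2.04% over all measured genes and no result about the pathway, and the median log2 ratio was 0.19. Their ratios ran from −0.15 to 0.73, so gpx1 lay above all 20 and both ctt1 and sod1 below all 20. The gene for the stress kinase Sty1 had signals of 1754 and 1879 and a log2 ratio of 0.10. The genes atf1 and pcr1, for the transcription factors that pair with each other downstream of Sty1, had log2 ratios of 0.37 and 0.39. The regulator genes pap1 and prr1 had 0.09 and 0.14, and csx1, for an RNA-binding protein that stabilises atf1 transcripts under oxidative stress, had 0.36. The largest was srk1, for a kinase bound by Sty1, at 0.73 (1.66-fold higher), followed by the kinase gene win1 at 0.44.

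Other stress-induced targets of Sty1 and Atf1 were set beside the same genes. Like the other lists, this one was chosen with earlier results of these data known, so its counts and median are no test. All 13 measured targets had a ratio above 0, and 5 were at least 2-fold higher and 0 at least 2-fold lower. Over all measured genes, 2.25% were at least 2-fold higher and 2.04% at least 2-fold lower. The list's median log2 ratio was 0.82. The ratio of gpx1 fell in the middle of the list, above 7 and below 6 of its genes and 0.09 above its median. That of ctt1 lay below all 13, and its difference from the median was −2.18. The dehydrogenase gene tms1 was 3.79-fold higher and hri1, for a kinase that acts on a translation initiation factor, 2.81-fold higher. The pyridoxal reductase gene plr1 gave 3713 untreated and 7789 treated, 2.10-fold higher, and cta3, an ATPase gene, was dim, with signals of 26.0 and 66.8. The gene zym1 belongs to this list as well as to the metal list, and pyp2 to this list as well as to the stress regulators. A lower count of 4 genes at 2-fold was found with no background floor and 16 added to each signal.

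**Figure D3:**
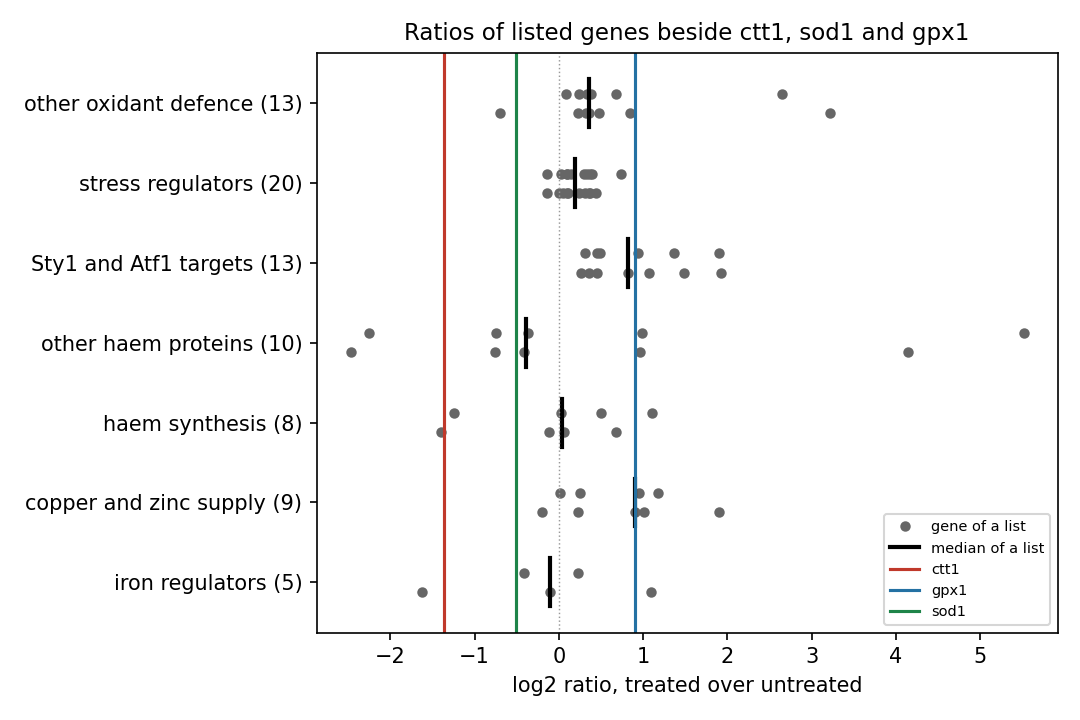
Log2 ratio of treated over untreated signal for the measured genes of 7 lists (number of genes in brackets), 1 point per gene, with a black bar at each list's median and coloured lines at ctt1, sod1 and gpx1. The line of ctt1 lies left of all points except 2 haem proteins, 1 haem synthesis gene and 1 iron regulator, and the line of gpx1 runs through the middle of the Sty1 and Atf1 targets.

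Other genes for haem-carrying proteins did not differ in 1 direction. Of 10 measured genes in a list of proteins with haem, sirohaem or a cytochrome b5 domain, 2 were at least 2-fold lower, 2 at least 2-fold higher and 6 within 2-fold. The shares over all measured genes were 2.04% lower and 2.25% higher. The median over these 10 was −0.39 in log2, with 4 genes above 0 and 6 below. The cytochrome c1 gene cyt1, at 5.55-fold lower, and the cytochrome c gene cyc1, at 4.78-fold lower, were the genes of the list with a ratio below that of ctt1. The ferric reductase genes frp1 and frp2, whose budding yeast relatives carry haem, were 45.8-fold and 17.6-fold higher. The other genes above 0, scs7 and dap1, were 1.97-fold and 1.95-fold higher. The others below 0, oca8, erg11, sir1 and erg5, had log2 ratios of −0.76, −0.75, −0.41 and −0.37. The count of genes at least 2-fold higher was 4 after quantile normalization and after removal of a trend on signal.

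Genes of haem synthesis lay on both sides of 0. Of 8 measured, 1 was at least 2-fold higher, 2 at least 2-fold lower and 5 within 2-fold. Beside this stand 2.25% higher and 2.04% lower over all measured genes. The uroporphyrinogen synthase gene hem4 had signals of 583 and 220 and was 2.65-fold lower, and hem3, for porphobilinogen deaminase, the enzyme of the step before it, was 2.36-fold lower. The coproporphyrinogen oxidase gene hem13 was 2.15-fold higher, and hem14, for protoporphyrinogen oxidase, 1.60-fold higher. The median log2 ratio was 0.04, and −0.03 when the arrays were scaled to the hybridisation controls. The ratio of ctt1, at −1.37, lay above that of hem4, at −1.40, and below those of the other 7.

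Among 5 iron regulator genes, fep1, the repressor of iron uptake, had signals of 423 and 137 and was 3.08-fold lower. The gene php4, for a subunit that turns the CCAAT-binding complex into a repressor of iron-using genes when iron is scarce, gave 500.2 untreated and 1069 treated, 2.14-fold higher. Subunits of the same complex, php5 and php3, had log2 ratios of −0.41 and 0.23. Only fep1 had a ratio below that of ctt1. Whether iron or haem supply has a part in the signal of ctt1 was not tested.

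The genes most like each of the 3 in signal on both arrays were found by the distance in the plane of log2 untreated and log2 treated signal. For ctt1 these were qcr7 and qcr8, subunits of respiratory complex III, and cox5, a cytochrome oxidase subunit gene, at distances of 0.19, 0.26 and 0.26. They were 2.95-fold, 2.72-fold and 3.30-fold lower on the treated array. For gpx1 they were plr1, the glucose-6-phosphate dehydrogenase gene zwf1, which supplies NADPH, and the glycerol-3-phosphate dehydrogenase gene gut2, at 0.12, 0.22 and 0.29. These were 2.10-fold, 1.85-fold and 1.49-fold higher. For sod1 they were the asparagine synthetase gene asn1, the ATP synthase gene atp2 and cbf5, for a pseudouridine synthase of ribosomal RNA, at 0.11, 0.17 and 0.21, with log2 ratios of −0.53, −0.56 and −0.22. A distance over 2 arrays depends on the brightness of the probe sets as well as on the change. Genes close in this plane have similar ratios by the way they were chosen, so the shared direction is no separate result.

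Among genes next to them in the genome, by their order in RefSeq, only neighbours of sod1 and gpx1 had a value. The neighbours of sod1 are eng1, an endoglucanase gene of cell separation, with a log2 ratio of 0.44, and pro1, with −0.31. The sign of eng1 was opposite to that of sod1, and the sign of pro1 was the same. Of the neighbours of gpx1, the gamma-tubulin gene gtb1 had −0.34, opposite in sign to gpx1. The other neighbour of gpx1 and both neighbours of ctt1 were not analysed here.

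The values of the 3 genes moved little with the processing. Over 7 alternatives, among them quantile normalization and scaling to the hybridisation controls, the log2 ratio of ctt1 ran from −1.43 to −1.33, that of gpx1 from 0.84 to 0.91 and that of sod1 from −0.61 to −0.50. In each of them ctt1 was past 2-fold and the other genes were not. The difference between ctt1 and gpx1 ran from −2.27 to −2.18.

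**Figure D4:**
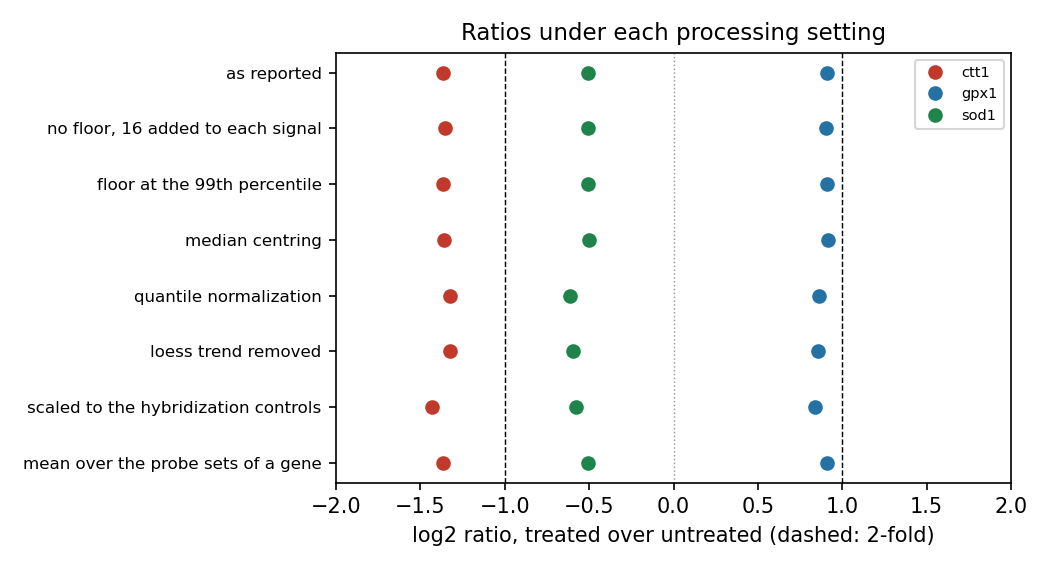
Log2 ratio of treated over untreated signal for ctt1, sod1 and gpx1 as reported and under 7 other processing settings, with dashed lines at 2-fold. The points of each gene form a near-vertical column, with ctt1 between −1.43 and −1.33, sod1 between −0.61 and −0.50 and gpx1 between 0.84 and 0.91.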

How the data were processed

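The authors deposited 1 linear intensity per probe set and array. Affymetrix Expression Console produced them, per the submitters' processing notes, with the version and the summarisation method not given in the sources used here. Each array's 2% trimmed mean is about 500, so ratios are relative to the rest of the array. Groups came from the treatment in the labels. Probe sets were named by a platform annotation that can be old and updated by gene identifier through the RefSeq table of assembly ASM294v3, from which no coordinates are printed. Signals under the background level (95th percentile of S. cerevisiae probe sets) were set to that level, and log2 was then taken. For genes with several probe sets the brightest was used.

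The genes and lists were chosen with earlier results of these data known. Of 87 listed genes 76 were measured. The haem synthesis gene listed as ups1 was matched as hem4, its RefSeq name. Named in each list were the up to 4 genes with the largest absolute ratio, genes at 2-fold or more, some regulators and enzymes fixed by name, and the 3 genes nearest to ctt1, gpx1 and sod1 each. In the metal list zrt1, zhf1 and cuf1 were named in addition. So were the Sty1 and Atf1 targets below gpx1 and the other measured haem proteins. Steps were run in Python 3.11.15 with pandas 2.3.3 and statsmodels 0.14.6, and tested on simulated data. Alternatives were thresholds of 1.5-fold and 3-fold, 16 added to each signal with no floor, the 99th percentile as floor, quantile normalization, median centring, a loess trend (span 0.3), hybridisation controls and averaging of probe sets. A planned search for motifs in promoters was not run.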

Additional observations from a re-analysis of the deposited data

How the results depend on the processing

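None of the log2 ratios of ctt1, gpx1 and sod1, their difference or the list medians moved by more than the SD of the added control probe sets, 0.24, under the alternatives other than a changed threshold. Adding grx3, grx4, grx5 and txl1 to the oxidant defence list, an alternative chosen after seeing the data, moved its median log2 ratio from 0.35 to 0.32. The median of haem synthesis genes was near 0 and changed sign when the arrays were scaled to the hybridisation controls. Counts changed with the threshold, by its construction. At 1.5-fold, 1 of the 3 genes (gpx1) was higher, and over all measured genes 164 were higher and 191 lower. At 3-fold, 0 of the 3 genes were lower, and over all measured genes 26 were higher and 18 lower. With the threshold at 2-fold, the other alternatives gave 51 to 72 measured genes higher and 54 to 66 lower, with ctt1 as the 1 lower gene of the 3 in each. All 3 genes were far above background on both arrays, so the floor had no part in their ratios. What limits them is 1 array per group and 1 probe set per gene. Control probe sets along gpd3 had log2 ratios from 0.28 at the 3′ end to 1.62 at the 5′ end. The part of probe position and RNA quality in the 3 ratios was not tested. No paired analysis was possible because each group has 1 array.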
